A study of Mus musculus with 14 samples.

Results

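The genes described here are 38 genes of the blood clotting and complement systems whose products the hepatocyte makes and secretes. They were taken as a list of named genes, with no threshold on a measured value but with earlier results of these data known, and all 38 were among the 13131 genes that passed the filter on low counts. In the list are 19 genes of coagulation (13 clotting factors and fibrinogen chains, 6 inhibitors and fibrinolysis genes) and 19 of complement (8 of initiation, C3 and factor B, 6 of the terminal pathway and 3 regulators).

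Gene expression was measured by RNA sequencing of liver from recipient mice on a high-fat diet. The transplant group (6 libraries, titled iBAT 2x) had received a silk scaffold carrying brown adipose tissue pre-adipocytes, which had been isolated with the stromal fraction and differentiated, and the empty scaffold group (8 libraries, titled Sham-WT) had received a scaffold without cells. The study asked which metabolic changes the transplant brings, among them changes of the liver transcriptome. The labels give neither strain, age and sex of recipients or donors nor the time after surgery, do not say what 2x stands for, and do not state that each library is a separate animal, so the p-values below measure the spread between these libraries.

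Hepatocytes release most clotting factors and complement proteins into blood as inactive precursors. In coagulation, a chain of proteases ends in thrombin, which turns fibrinogen into fibrin, while antithrombin, heparin cofactor II and protein C hold the chain back and plasmin dissolves the clot. In complement, antibody (through C1r and C1s) or sugar patterns (through mannose-binding lectins and their MASP proteases) lead to cleavage of C4, C2 and C3, after which C5 to C9 assemble into a pore in the target membrane.

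The libraries held 19482580 to 28910968 estimated counts. Defining hepatocyte markers were abundant throughout, with 12 of 12 tested and a summed level of 89770 to 149200 CPM (counts as a share of the scaled library). Of these 12 markers, 1 was higher in the transplant group (Asgr1) and none was lower. In DESeq2, another test, 3 of 12 were higher (15.0% of all genes called). Once trends with length and GC content were removed, 0 of 12 were called (3.79% of all genes). Kupffer cell markers summed to 159 to 242 CPM in the transplant group and 203 to 476 CPM in the empty scaffold group, with 5 of 12 lower (Cd5l, Csf1r, Cd68, C1qb and C1qc). Endothelial markers had 2 of 10 lower and stellate cell markers 3 of 10 lower. Of all genes, 3.31% were higher and 4.23% lower in the comparison that gave these marker counts. With DESeq2 the endothelial and stellate cell counts were 2 and 6 (15.0% of all genes called). With the same trends removed they were 0 and 0 (3.79%). That removal left 7 of 12 Kupffer cell markers lower. Estimates of all 10 stellate cell markers were below 0 with and without it. Of 11 listed platelet markers 4 were tested and of 7 erythroid markers 5, and none was called. No marker of these lists, whether it passed the filter on low counts or not, stood at 0 in every library. The part that the makeup of the tissue had in the results below was not tested, and in bulk tissue fewer cells of a type and less RNA per cell cannot be told apart.

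Together the 38 genes held 2.93% to 4.41% of the scaled counts of a library. Their summed level was 36740 ± 3794 CPM (SD, n = 6) in the transplant group and 34990 ± 5495 CPM (SD, n = 8) in the empty scaffold group. Levels of different genes were set against each other as TPM, which is a share per transcript length. In the empty scaffold group the gamma chain of fibrinogen (Fgg, 2582 ± 388 TPM), antithrombin (Serpinc1, 2571 ± 268 TPM) and the alpha chain of fibrinogen (Fga, 2273 ± 513 TPM) had the highest means. The ranges of mean ± SD of these neighbours in the order overlapped. C3, the beta chain of fibrinogen (Fgb), prothrombin (F2), kininogen (Kng1), plasminogen (Plg) and factor B (Cfb) followed between 827 and 1427 TPM. At the low end stood the lectin pathway protease Masp1 (29.8 ± 8.7 TPM), factor XI (F11, 25.2 ± 7.6 TPM), protein S (Pros1, 23.2 ± 6.0 TPM) and C6 (21.9 ± 5.8 TPM), whose SDs also overlapped between neighbours.

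**Figure D1:**
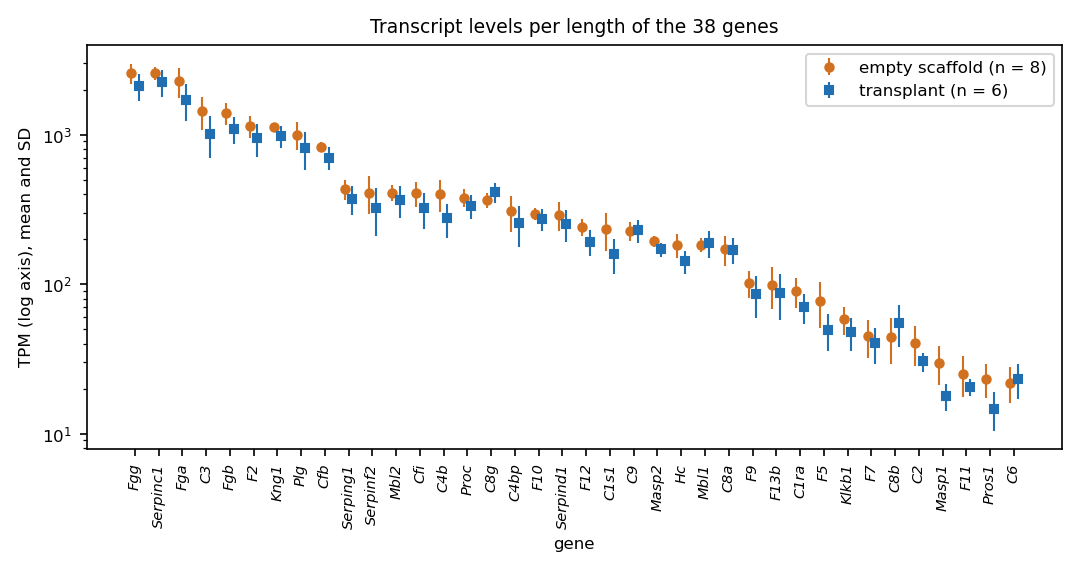
Mean TPM (log axis) and SD of each of the 38 genes in the empty scaffold group (circles, n = 8) and the transplant group (squares, n = 6), in descending order of the empty scaffold mean. Levels ran from 2582 TPM for Fgg to 21.9 TPM for C6 in the empty scaffold group. Means of 33 of the 38 genes were lower in the transplant group on this scale. The median log2 ratio over all tested genes was -0.47 there, and 32 of the 38 genes lay above it.

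In the transplant livers 3 of the 38 genes were higher than in the empty scaffold livers and none was lower. They were C8b and C8g, which encode the beta and gamma chains of the C8 protein of the pore, and Mbl1, a mannose-binding lectin. The share of 7.89% stood beside 7.54% of all 13131 genes called in either direction (990 genes, 3.31% higher and 4.23% lower) at a Benjamini-Hochberg adjusted p under 0.05 in edgeR's quasi-likelihood test, so the share of the 38 genes called was close to the background. All 3 belonged to complement (3 of 19), and of the 19 coagulation genes none passed. At an unadjusted p under 0.05, 9 of the 38 genes were counted, all higher (30.0% of all genes, 14.6% higher), and 3 of them were coagulation genes, of which DESeq2 called F7. Under other settings the count was 3 of 38 with RLE scaling (7.13% of all genes) and with scaling without Mup genes (7.44%), 2 without filter (2.68%) and with trends removed (3.79%), 5 with DESeq2 (15.0%), 4 with the title numbers as covariate (19.6%) and 0 with the effective length offset (2.40%). No gene of the 38 had groups that did not overlap, against 0.571% of all genes wholly higher and 0.701% wholly lower in the transplant group.

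The log2 fold changes of the 38 genes, transplant minus empty scaffold, ran from -0.27 (C4b) to 0.74 (C8b) with a median of 0.17, beside a median of -0.02 over all tested genes. They were above 0 for 31 of the 38 genes (81.6%, against 47.1% of all tested genes). On the deposited TPM scale the direction of most was the opposite, with a lower mean in the transplant group for 33 of 38 genes and a median log2 ratio of -0.27. The median over all tested genes on that scale was -0.47, and 32 of the 38 genes lay above it. The 5 genes with a higher mean TPM in the transplant group were C8b, C8g, C6, Mbl1 and C9. For 29 of the 38 genes the 95% interval of the fold change lay within 1.5-fold in either direction, and for 37 within 2-fold.

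**Figure D2:**
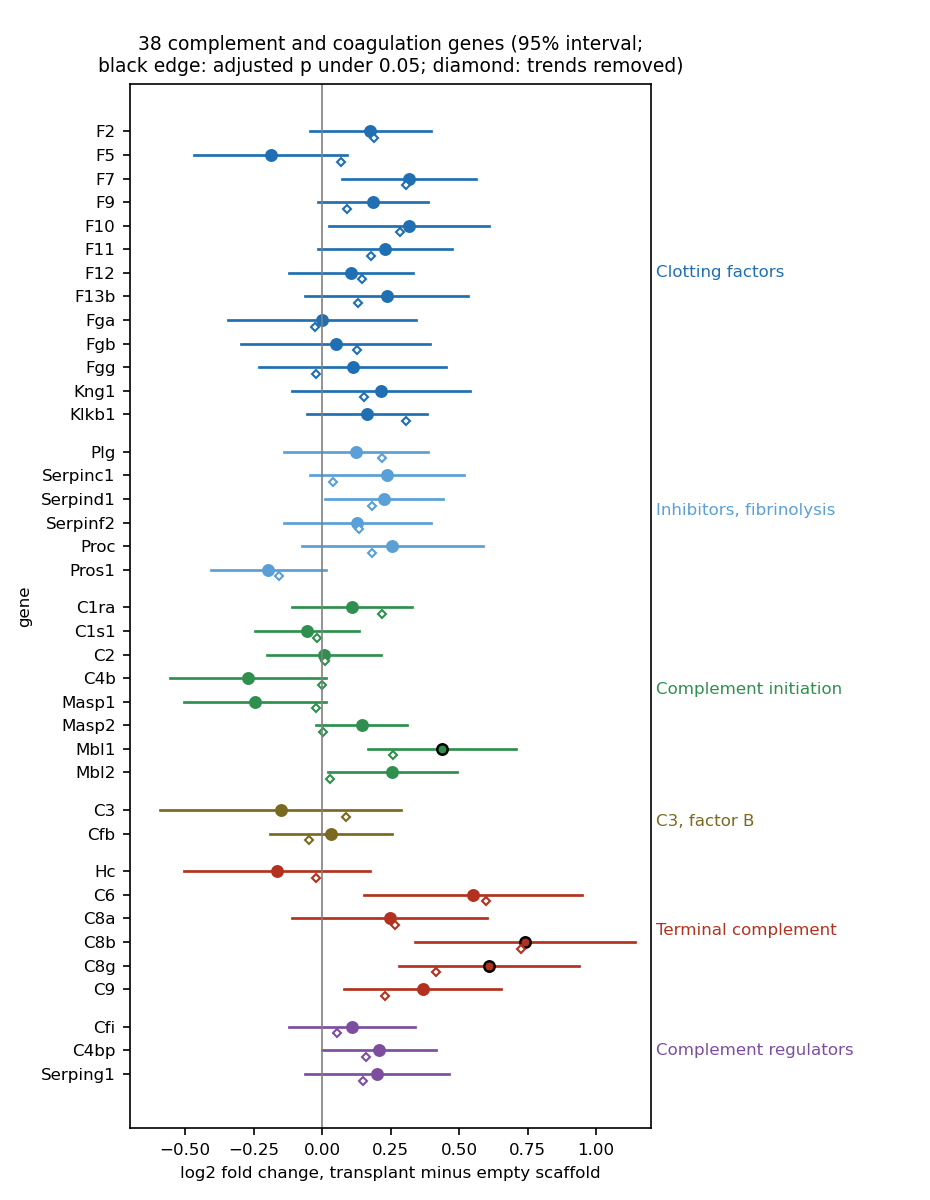
Log2 fold change (transplant minus empty scaffold, horizontal axis) of the 38 genes by role, with the 95% interval as a line, a black edge where the adjusted p was under 0.05, and an open diamond for the estimate after length and GC trends were removed. C8b, C8g and Mbl1 carry the black edge, and most other intervals cross 0.

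C8 is made of 3 chains, of which C8a and C8b insert into or dock at the growing pore and C8g is a lipocalin bound to C8a. C8b stood at 77.3, 131.8 and 140.5 CPM (lowest, median and highest) in the transplant group and at 39.6, 78.9 and 106.8 CPM in the empty scaffold group. Transplant libraries other than replicate 4 were above every empty scaffold library, and replicate 4 was near the median of the empty scaffold group. The log2 fold change was 0.74 ± 0.19 (SE, 95% interval 0.34 to 1.14, adjusted p = 0.0345), a fold of 1.67.

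C8g stood at 399, 474 and 667 CPM in the transplant group and at 214, 300 and 441 CPM in the empty scaffold group. Here 5 of 6 transplant libraries were above every empty scaffold library, and replicate 1 was the highest. The log2 fold change was 0.61 ± 0.16 (SE, 95% interval 0.28 to 0.94, adjusted p = 0.0337). C8a held 436 ± 72.2 CPM (SD, n = 6) in transplant and 368 ± 98.8 CPM (SD, n = 8) in empty scaffold livers, with a smaller fold change of 0.25 ± 0.17 (log2, SE, adjusted p = 0.333).

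Both C8 calls were close to the threshold. With an offset from the deposited effective lengths the estimates were 0.74 for C8b and 0.59 for C8g, but the adjusted p became 0.0530 and 0.0552. Once the trends of level with length and GC content were taken out of each library, C8b was 0.72 (adjusted p = 0.0496) and C8g 0.42 (adjusted p = 0.0344). Over all alternatives the adjusted p of C8b ran from 0.00515 to 0.626 and that of C8g from 0.00594 to 0.497, the highest in the libraries with title numbers below 100 alone. Leaving out 1 library at a time kept each call in 7 of 14 fits. The call of C8b was lost without transplant replicate 1, 2, 3 or 5 or empty scaffold replicate 3, 4 or 8 (adjusted p up to 0.0799), and that of C8g without transplant replicate 1, 3 or 5 or empty scaffold replicate 2, 3, 4 or 8 (adjusted p up to 0.0984). The estimates stayed between 0.65 and 0.84 for C8b and between 0.50 and 0.68 for C8g in those fits.

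In mice C8a and C8b lie on chromosome 4, and C8g lies on chromosome 2. The 250 bases before the RefSeq start of each C8 gene and of Mbl1 are shown because these genes are the called ones and their partner chain, in GRCm38.p6 coordinates, 5′ to 3′ along the strand of the gene. Capitals mark a match to the STAT motif, TTCNNNGAA, which reads the same on both strands.
C8a (chr4:104876399-104876648, minus strand): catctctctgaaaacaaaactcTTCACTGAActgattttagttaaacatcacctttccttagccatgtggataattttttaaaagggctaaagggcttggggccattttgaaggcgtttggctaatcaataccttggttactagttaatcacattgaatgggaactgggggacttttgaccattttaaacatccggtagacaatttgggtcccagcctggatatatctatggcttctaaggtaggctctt
C8b (chr4:104766067-104766316, plus strand): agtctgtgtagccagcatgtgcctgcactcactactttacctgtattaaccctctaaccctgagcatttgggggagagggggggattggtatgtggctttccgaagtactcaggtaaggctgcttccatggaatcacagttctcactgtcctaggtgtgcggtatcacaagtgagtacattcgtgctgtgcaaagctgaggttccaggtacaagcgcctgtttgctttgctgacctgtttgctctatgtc
C8g (chr2:25501720-25501969, minus strand): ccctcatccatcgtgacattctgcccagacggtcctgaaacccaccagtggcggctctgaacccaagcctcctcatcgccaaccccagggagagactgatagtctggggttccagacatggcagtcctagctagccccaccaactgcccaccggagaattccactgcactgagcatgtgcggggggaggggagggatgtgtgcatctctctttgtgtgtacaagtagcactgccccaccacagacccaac
Mbl1 (chr14:41151206-41151455, plus strand): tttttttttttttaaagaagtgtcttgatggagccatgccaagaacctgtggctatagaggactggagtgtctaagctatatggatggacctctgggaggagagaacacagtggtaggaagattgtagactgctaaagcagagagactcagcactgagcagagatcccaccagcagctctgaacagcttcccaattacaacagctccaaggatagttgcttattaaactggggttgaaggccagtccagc

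Among these windows the STAT letters stood only in that of C8a, 228 bases before the start, and those of the 3 called genes did not hold them. Promoter windows were matched for 29 of the 38 genes, and 6 of the 29 (20.7%) held the STAT motif (C8a, F9, Fga, Fgb, Masp2 and Pros1), against 7.18% of 27025 windows of the same length. In all, 4 motifs were searched, of which 1 is not reported here, so those given are no full account. A C/EBP motif, TTGCGNAA, searched on both strands as was the one that follows, stood in that of C3 (3.45%, against 0.67%), and an HNF4 motif, CAAAGTCCA, in none (against 0.381%). These matches describe letters in these windows only.

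None of the other terminal genes passed the adjusted threshold in edgeR, while DESeq2 called C6 (adjusted p = 0.0397). C6, which binds C5b to start the pore, stood at 48.1, 58.0 and 110.8 CPM in the transplant group and at 33.5, 43.1 and 67.2 CPM in the empty scaffold group (log2 fold change 0.55 ± 0.19 SE, adjusted p = 0.073). Without transplant replicate 6, its highest library, C6 was 0.34 (adjusted p = 0.178), and without empty scaffold replicate 7 it was called (adjusted p = 0.0319). C9, which polymerises into the wall of the pore, stood at 287, 365 and 449 CPM against 230, 265 and 367 CPM (0.37 ± 0.14 SE, adjusted p = 0.0898). For both, 2 transplant libraries were above every empty scaffold library and the rest lay within its range. Hc, the mouse gene of C5, averaged 507 ± 98.1 CPM (SD, n = 6) in transplant and 569 ± 131 CPM (SD, n = 8) in empty scaffold livers, a log2 difference of -0.17 ± 0.16 (SE, adjusted p = 0.503). Of the 6 terminal genes, 2 were called (0 with the effective length offset), beside 7.54% of all genes, and 5 had estimates above 0, beside 47.1% of all genes, with a median of 0.46.

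**Figure D3:**
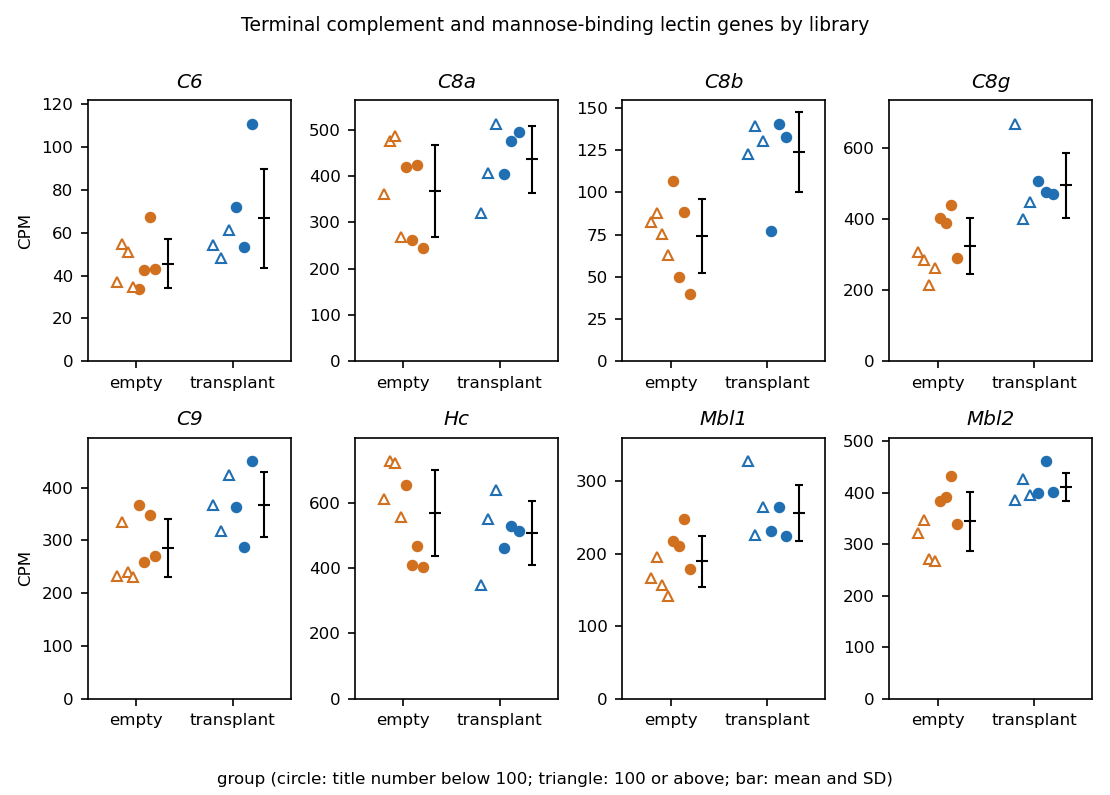
CPM by library for C6, C8a, C8b, C8g, C9, Hc, Mbl1 and Mbl2 (circles for title numbers below 100, triangles for 100 or above, bars for the mean and SD of each group of 8 empty scaffold and 6 transplant libraries). C8b shows 5 transplant libraries above all empty scaffold libraries and 1 at 77.3 CPM, while the groups overlap widely for C8a and Hc.

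Of the 8 genes of initiation, Mbl1 alone was called. The mannose-binding lectins Mbl1 and Mbl2 recognise sugars on microbes. Mbl1 stood at 225, 248 and 328 CPM in the transplant group and at 142, 187 and 248 CPM in the empty scaffold group, with 3 of 6 transplant libraries above every empty scaffold library. Its log2 fold change was 0.44 ± 0.13 (SE, adjusted p = 0.0476). The call was lost without filter (adjusted p = 0.0593), with the effective length offset (0.0724) and with trends removed (log2 fold change 0.26, adjusted p = 0.0929), and its adjusted p over all alternatives ran from 0.0160 to 0.735. It was kept only in the 3 fits that left out empty scaffold replicate 5, 6 or 7, and leaving out any other library ended it, with an adjusted p of up to 0.135. Mbl2 stood at 387, 400.4 and 461 CPM against 268, 343 and 433 CPM (0.26 ± 0.11 SE, adjusted p = 0.134), and with trends removed its estimate was 0.03.

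The MASP proteases, which bind the lectins, had estimates on opposite sides of 0, and neither was called. Masp1 stood at 68.7, 97.1 and 109.6 CPM in the transplant group and at 87.1, 116.6 and 134.4 CPM in the empty scaffold group (log2 fold change -0.25 ± 0.12 SE, adjusted p = 0.188). Masp2, which cleaves C4 and C2, averaged 206 ± 8.18 CPM (SD, n = 6) in transplant and 186 ± 14.98 CPM (SD, n = 8) in empty scaffold livers, a log2 difference of 0.14 ± 0.08 (SE, adjusted p = 0.221). C4b, the substrate of C1s and MASP2, stood at 974, 1480 and 1530 CPM against 1343, 1624 and 2108 CPM (-0.27 ± 0.13 SE, adjusted p = 0.184). After removal of the trends, C4b was at 0.00 and Masp1 at -0.02. The proteases of the antibody-bound C1 complex, C1ra (0.11 ± 0.10 SE) and C1s1 (-0.05 ± 0.09 SE), and C2 (0.01 ± 0.10 SE) had adjusted p-values between 0.497 and 0.97.

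C3, on which the pathways converge, had the widest spread of the 38 genes, with an SD of 0.44 on the log2 scale within groups. It averaged 4652 ± 1290 CPM (SD, n = 6) in transplant and 5164 ± 1394 CPM (SD, n = 8) in empty scaffold livers, a log2 difference of -0.15 ± 0.21 (SE, adjusted p = 0.648). Factor B (Cfb), the protease of the alternative pathway, differed by 0.03 ± 0.11 (SE, adjusted p = 0.855). Of the regulators, C4bp, which binds C4b, stood at 624, 635 and 729 CPM against 478, 550.4 and 673 CPM (0.21 ± 0.10 SE, adjusted p = 0.168). Factor I (Cfi), which cuts C3b and C4b, and C1 inhibitor (Serping1) had estimates of 0.11 and 0.20 with no call.

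Of the 13 clotting factor genes, 12 had estimates above 0 and none was called, with a median of 0.18. Factor VII (F7), which starts the tissue factor pathway, stood at 80.9, 94.8 and 107.5 CPM in the transplant group and at 55.0, 73.9 and 95.9 CPM in the empty scaffold group. In this gene 3 transplant libraries were above every empty scaffold library, and its log2 fold change was 0.32 ± 0.12 (SE, adjusted p = 0.087). Factor X (F10), which F7 and factor IX activate, stood at 475, 534 and 674 CPM against 331, 417 and 641 CPM (0.32 ± 0.14 SE, adjusted p = 0.138), and 1 transplant library exceeded all of the empty scaffold group. Prothrombin (F2) had 0.18 ± 0.10 (SE), factor IX (F9) 0.19 ± 0.10 (SE), factor XI (F11) 0.23 ± 0.12 (SE), and factor V (F5), the cofactor of factor Xa and the longest transcript of the 38, -0.19 ± 0.13 (SE). Contact factors (F12, Kng1 and Klkb1) and the B subunit of factor XIII (F13b) had estimates between 0.10 and 0.24.

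The chains of fibrinogen, the precursor of the clot fibre, had estimates near 0 and none was called. Fga stood at 2796, 3761 and 4216 CPM (lowest, median and highest) in the transplant group and at 2599, 3243 and 5051 CPM in the empty scaffold group. Fgb stood at 3402, 4064 and 5230 CPM against 2723, 3710 and 6106 CPM, and Fgg at 2576, 3170 and 3831 CPM against 1935, 2742 and 4231 CPM. In each chain the empty scaffold group held both the lowest and the highest library. Log2 fold changes were 0.00 ± 0.16 for Fga, 0.05 ± 0.16 for Fgb and 0.11 ± 0.16 for Fgg (SE, adjusted p = 1.0, 0.855 and 0.666), and the 95% intervals of the fold reached from 0.789 for Fga to 1.37 for Fgg.

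Summed over the chains, fibrinogen held 10980 ± 1507 CPM (SD, n = 6) in transplant and 10610 ± 2752 CPM (SD, n = 8) in empty scaffold livers, a log2 difference of 0.08 (two-sided exact permutation p = 0.636 over 3003 splits). The chains moved together between libraries. Within groups the SD of a single chain was 0.31 on the log2 scale, while the SD of the ratio was 0.11 for Fgb to Fga and 0.14 for Fgg to Fga. These ratios share the denominator and the libraries.

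**Figure D4:**
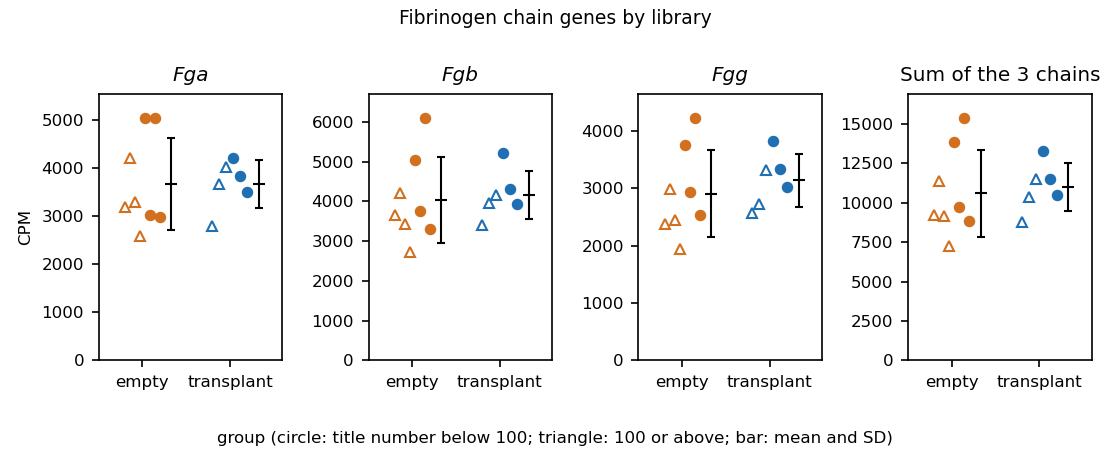
CPM by library for Fga, Fgb, Fgg and their sum (circles for title numbers below 100, triangles for 100 or above, bars for the mean and SD of 8 empty scaffold and 6 transplant libraries). The sum ran from 7256 to 15390 CPM in the empty scaffold group, and all transplant libraries (8774 to 13280 CPM) lay within that range.

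Inhibitors of clotting and genes of fibrinolysis held no call among 6 genes, with a median of 0.18. Heparin cofactor II (Serpind1) stood at 432, 547 and 562 CPM in the transplant group and at 378, 437 and 568.1 CPM in the empty scaffold group. Most transplant libraries were in the upper part of the empty scaffold range, and none was above it, with a log2 fold change of 0.23 ± 0.10 (SE, adjusted p = 0.149). Antithrombin (Serpinc1) had 0.24 ± 0.13 (SE), protein C (Proc) 0.26 ± 0.16 (SE), plasminogen (Plg) 0.12 ± 0.12 (SE) and alpha 2-antiplasmin (Serpinf2) 0.13 ± 0.13 (SE). Protein S (Pros1), the cofactor of protein C, had the only estimate below 0 in this group, -0.20 ± 0.10 (SE, adjusted p = 0.195).

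Ratios were compared for partners in one protein or complex, and for 2 pairs of related genes (Mbl1 and Mbl2, Masp1 and Masp2). These 8 ratios were compared by a two-sided exact permutation test, chosen after the values were seen. None passed at a p adjusted over the 8 ratios. C8b relative to C8a differed by 0.50 on the log2 scale (p = 0.011, adjusted p = 0.0759) and Masp1 relative to Masp2 by -0.39 (p = 0.019, adjusted p = 0.0759, both exact permutation). Mbl1 relative to Mbl2 (0.17) and C1s1 relative to C1ra (-0.17) had an adjusted p of 0.0773 in the same exact test. C8g relative to C8a differed by 0.35 (exact permutation p = 0.241).

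Fold changes were lower for longer transcripts. Over the 38 genes Pearson's r between log2 fold change and log2 mean transcript length was -0.59, and over all 13131 tested genes it was -0.454, as a description across genes, which share libraries and are not independent. After length and GC trends were removed in each library, r was -0.10 over the 38 genes. The longest, F5 (7430 bases), went from -0.19 to 0.07. Serpinc1, of short mean length (986 bases), went from 0.24 to 0.04, although 27.0% of its estimated count came from a transcript of 4970 bases. C8b (2236 bases) and C6 (2833 bases) stayed at 0.72 and 0.60. The median length of the 38 genes, 2122 bases, was close to the 2372 bases of all tested genes, and that of the 3 called genes was 1342 bases.

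**Figure D5:**
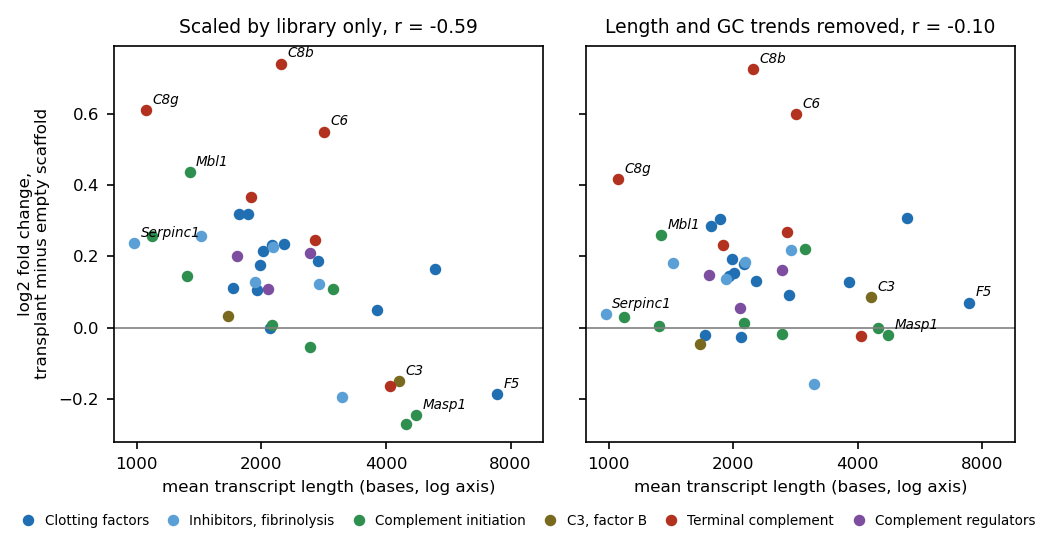
Log2 fold change (transplant minus empty scaffold) against mean transcript length (log axis) of the 38 genes, coloured by role, with libraries scaled only (left, r = -0.59) and with length and GC trends removed (right, r = -0.10). C8b is highest in both panels. C8g (0.61) lies above C6 (0.55) on the left and below it on the right (0.42 and 0.60).

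What the numbers in the sample titles mean is not stated. They are below 100 for 3 transplant and 4 empty scaffold libraries and 100 or above for the same number of each. Groups do not interleave within a range, so the group and anything that follows the numbers there cannot be told apart. With numbers of 100 or above alone, 10 of the 38 genes were called (26.0% of all genes, 14.5% higher), 8 higher (F10, F13b, Serpinc1, Mbl1, Mbl2, C8b, C8g and C9) and 2 lower (F5 and Masp1). Below 100 none of the 38 genes and 0.0231% of all genes were called. C8b was 0.72 below 100 and 0.76 at 100 or above, C8g 0.35 and 0.92, Mbl1 0.17 and 0.72, and Masp1 0.06 and -0.56. The difference between ranges, tested as an interaction, passed for no gene (smallest adjusted p 0.0528 over all genes), and at an unadjusted p under 0.05 it was counted for 6 of the 38 genes and 17.3% of all genes.

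The range itself, as a term beside the group chosen after the data were seen, went with 6 of the 38 genes, all of coagulation and all lower at 100 or above (23.4% of all genes were called, 10.9% lower). They were Kng1 (log2 difference -0.46), Proc (-0.43), F10 (-0.37), Fgg (-0.37), Serpinc1 (-0.31) and F12 (-0.25). Once those trends were taken out, the called genes were Fgb (-0.53), Kng1 (-0.45) and Klkb1 (-0.38), beside 13.4% of all genes.

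The deposited tables list transcripts, and 27 of the 38 genes had at least 2 with a mean estimated count of 10 or more. The share of the leading transcript was called for none of them and for none of the 7060 genes tested (exact permutation test, smallest adjusted p 0.913 for the 38 genes). At an unadjusted p under 0.05, 2 of them (Fga and Masp2) and 356 of all genes were counted. With 14 libraries the exact p has a lower limit, so after adjustment over 7060 genes a change in only a few genes could not be called. The lack of calls therefore does not show that the shares were alike. C8b came almost whole from 1 protein-coding transcript (99.7% of its estimated count), whereas C8g was divided into its leading transcript (76.9%) and shorter ones, and Mbl1 was 80.1% one protein-coding transcript and 19.9% a transcript annotated as subject to nonsense-mediated decay.

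Near-identical neighbours can share reads with 4 of the genes. C1rb and C1s2 were close to 0 (at most 0.262 and 0.0862 CPM), C4a held 0.914% of the C4b and C4a sum, and Kng2 held 12.8% of the Kng1 and Kng2 sum. As summed pairs, C4 differed by -0.27 (exact permutation p = 0.0636) and the kininogens by 0.22 (exact permutation p = 0.177). Exons of 8 of the 38 genes overlap a gene on the opposite strand, and the library kit keeps strand but the strand setting of the counting is not given in the sources used here. For Masp2 that neighbour is Tardbp, at 31.5 to 41.6 CPM, so its value is uncertain. On the same strand C2 and Cfb overlap Gm20547, at most 0.776 CPM. Klkb1 shares 2267 exonic bases (43.2% of its own) with Gm45753 on the same strand, for which no level was available.

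Other genes of these pathways were counted from lists of 102 genes, of which 91 were tested and 13 were called (14.3%, 7 higher and 6 lower), beside 7.54% of all genes (3.31% higher and 4.23% lower), which is the background of each count that follows. Of 28 tested liver-made factors, 2 were higher, among them the factor H-related gene Cfhr2 (566 ± 70.4 CPM against 373 ± 75.3 CPM, log2 fold change 0.60 ± 0.13 SE, adjusted p = 0.019). Of 10 genes of vitamin K use and secretion, Vkorc1, the reductase that recycles vitamin K for the carboxylation of clotting factors, was higher (0.45 ± 0.12 SE, adjusted p = 0.0413), and Gas6, a vitamin K-dependent ligand, was lower (-0.57 ± 0.12 SE, adjusted p = 0.0195). With trends removed, Cfhr2 and Vkorc1 were no longer called (adjusted p = 0.131 and 0.152).

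Of 31 tested receptors, cell-surface regulators and fibrinolysis genes, 2 were higher and 5 lower, with a median of -0.50. Serpine2, an inhibitor of thrombin and plasminogen activators, was higher (9.62 ± 2.1 CPM against 4.22 ± 1.5 CPM, 1.19 ± 0.21 SE, adjusted p = 0.0133), as was Asgr1, the asialoglycoprotein receptor that clears glycoproteins (0.44 ± 0.13 SE, adjusted p = 0.0463). Lower were the endothelial scavenger receptor Stab2 (-0.51), the leukocyte integrin chain Itgb2 (-1.13), thrombomodulin (Thbd, -0.75), and the C1q chains C1qb (-0.66) and C1qc (-0.64). Stab2 also stands in the list of endothelial markers, Asgr1 in that of hepatocyte markers, and C1qb and C1qc in that of Kupffer cell markers. These counts are therefore in part of the same genes. With trends removed, Stab2 (adjusted p = 0.0815), Thbd (0.0958) and Asgr1 (0.0619) were no longer called, and with the effective length offset these and C1qb and C1qc were not (0.0556 to 0.0704).

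Of 22 regulators of hepatocyte genes, 2 were called, Onecut1 (14.8 ± 8.6 CPM against 5.76 ± 2.7 CPM, 1.34 ± 0.39 SE, adjusted p = 0.0487) and Foxa3 (0.50 ± 0.15 SE, adjusted p = 0.0497), both transcription factors and both higher. Neither was called with the effective length offset (adjusted p = 0.0918 and 0.0963) or without filter (0.12 and 0.0546), and with trends removed Onecut1 was called (0.0461) and Foxa3 was not (0.0677). Hnf4a, Cebpa, Stat3 and the IL-6 receptor genes were among those not called. In the same livers 10 of 24 tested genes of a list of growth hormone dependent, male-biased genes were higher (median 0.78), among them Mup3 and Hsd3b5. The count of this list was 16 with DESeq2 (15.0% of all genes called), 8 with trends removed (3.79%) and 0 with title numbers below 100 alone (0.0231%). C6 and C8a stand in that list too and were not called, and whether these genes moved with C8b and C8g for a shared reason was not tested.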

How the data were processed

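The liver libraries were made from total RNA with a stranded mRNA kit, per the labels' protocols. The submitters' processing notes name fastp 0.20, kallisto 0.46.1, DESeq2 1.38 and the build GRCm39. Per the file headers, the authors deposited per transcript a length, an effective length, an estimated count (not normalized) and a TPM. Genes were assigned from GENCODE M21, which is of GRCm38 and not of GRCm39 (identifiers of 93.7% of 128803 transcripts matched, with 99.4% to 99.5% of the counts). Estimated counts were summed per gene, rounded to whole numbers, filtered with filterByExpr and scaled by TMM.

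Transplant was compared with empty scaffold by the quasi-likelihood F test of edgeR 4.0.16 (R 4.3.3, two-sided, group as only term), with Benjamini-Hochberg adjustment over 13131 genes and calls at an adjusted p under 0.05. CPM are shares of the TMM-scaled library, and fold changes are log2 with the standard error of the fit. The deposited TPM keep no depth and entered no test. Alternatives were DESeq2 1.42.0, RLE scaling, no filter, effective length offsets, and length and GC trends removed from each library (natural splines with 4 degrees of freedom). Others were scaling without Mup genes, the range of the title number as covariate or each range alone, and leaving out each of 14 libraries. The edgeR and permutation steps were tested on simulated data.

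A gene of the 38 was given with its spread over libraries if called, among the 12 smallest p-values or a fibrinogen chain, and of every other list up to 6 called genes were named. The 38 genes, the lists and the tests were chosen with earlier results of these data known. Promoter sequences are RefSeq's, in a table of build GRCm38.p6, matched by symbol. Motifs and ratios of partner genes were chosen after the data were seen. Some results of the lists and motifs are not reported here.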

Additional observations from a re-analysis of the deposited data

Results flagged for a closer look

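Of 76 groups of libraries (38 genes in each of the transplant and empty scaffold groups), 8 held a library far from the others, where the gap to its nearest neighbour as a share of the range of log2 CPM exceeded 0.625 (6 libraries) or 0.526 (8 libraries). Chance alone gives about 1 in 20 such groups if they are independent. These are not, because the 38 genes were read in the same 14 libraries, so no excess over that rate is drawn from the count. Transplant replicate 1 was far below the others for C4b (974 CPM, nearest 1409 CPM, share 0.817), F5 (256 CPM, nearest 361 CPM, share 0.691) and Serping1 (532 CPM, nearest 673 CPM, share 0.653). Transplant replicate 4 was far below the others for C8b (77.3 CPM, nearest 122.8 CPM, share 0.775) and Serpind1 (432 CPM, nearest 519 CPM, share 0.695). Transplant replicate 3 was far above them for C4bp (729 CPM, nearest 652 CPM, share 0.72). Empty scaffold replicate 7 was far above the others for Cfb (1430 CPM, nearest 1182 CPM, share 0.641) and Proc (771 CPM, nearest 513 CPM, share 0.544). Counted over all 14 libraries, transplant replicate 1 and empty scaffold replicate 4 each held the lowest value of 10 of the 38 genes, and transplant replicate 5 and empty scaffold replicate 7 the highest of 10 and 9.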

How the results depend on the processing

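The count of the 38 genes called was 3 with RLE scaling and with scaling without Mup genes (the same genes). It was 2 without filter and with trends removed (C8b and C8g), and 5 with DESeq2 (F7, Mbl1, C6, C8b and C8g, where 15.0% of all genes were called). With the range of the title number as covariate it was 4 (F10 added, 19.6% of all genes). It was 0 with the effective length offset (2.40% of all genes), 0 below 100 and 10 at 100 or above. Leaving out 1 library gave 0 to 5, with 0 without transplant replicate 1, 3 or 5 or empty scaffold replicate 3, 4 or 8. Over all genes the count of 990 became 1965 with DESeq2, 315 with the effective length offset, 498 with trends removed, 2576 with the covariate, 3 below 100, 3487 at 100 or above and 138 to 1910 with 1 library left out. Of the other pathway genes, 13 became 8 without filter, 22 with DESeq2, 6 with the offset, 25 with the covariate, 0 below 100, 31 at 100 or above and 2 to 17 with 1 library left out. The cause of these shifts was not tested. The median log2 fold change of the 38 genes stayed between 0.13 and 0.20 with 1 library left out, and the fibrinogen sum between 0.0055 and 0.16. Some estimates, none of them called in the full comparison, changed sign. Fga was -0.0016 without filter, -0.0184 with the offset, -0.0268 with trends removed, -0.0621 below 100, -2.551e-05 with scaling without Mup genes and -0.0598 to 0.0791 with 1 library left out. Fgb was -0.0166 below 100 and -0.0315 to 0.16 with 1 library left out, Fgg was -0.0208 with trends removed, and Masp1, at -0.25 with all libraries, was 0.063 below 100. F5 (-0.19) was 0.07 with trends removed and 0.13 below 100, C3 (-0.15) was 0.09 under both, and Hc (-0.17) was 0.10 with the offset and 0.06 below 100. C1ra, C1s1, C2, Cfb and F11 also changed sign under at least 1 alternative. No paired analysis was possible because the labels give the groups no shared replicate numbers. The lowest level of any of the 38 genes in a library was 31.3 CPM (F11).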

Other observations

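Genes of an acute-phase list held no call in the full comparison. Apcs and Crp of this list also stand among the liver-made factors above. With title numbers of 100 or above alone, 1 was higher (14.5% of all genes). Of 25 such genes (serum amyloid A, haptoglobin, orosomucoid and others), edgeR and DESeq2 each called 0 (7.54% and 15.0% of all genes). In edgeR 4 had an unadjusted p under 0.05, 2 in each direction (30.0% of all genes). Log2 fold changes ran from -0.79 to 0.86 with a median of -0.03, and 14 of 25 were below 0. With length and GC trends removed the median was -0.15 and 19 of 25 were below 0, with no call. Their summed level was 18480 ± 2835 CPM (SD, n = 6) in the transplant group and 18460 ± 3407 CPM (SD, n = 8) in the empty scaffold group.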
